A study of Mus musculus with 15 samples.

Results

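Naive pluripotency factors are the transcription factors and associated genes that mark and sustain embryonic stem cells (ESCs) in the ground state of the preimplantation epiblast. The set described here held 10 of the 55536 genes in the count table, namely 3 Krüppel-like factors (*Klf2*, *Klf4* and *Klf5*), 3 orphan nuclear receptors (*Esrrb*, *Nr5a2* and *Nr0b1*), the CP2-family factor *Tfcp2l1*, the zinc finger gene *Zfp42* (*Rex1*), the AKT co-activator gene *Tcl1* and the RNA-binding protein gene *Dppa5a*. The list was set by gene name, with no threshold on measured values, and all 10 passed the filter on low counts.

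The samples were 3 replicates each of 5 groups of cells. ESCs were grown in N2B27 with 2i and LIF, that is 1 μM PD0325901, 3 μM CHIR99021 and 1000 U/ml LIF. EpiLCs (epiblast-like cells) were taken after 48 h in Activin A at 20 ng/ml with bFGF at 12 ng/ml. D2PGCLCs, D4PGCLCs and D6PGCLCs were primordial germ cell-like cells, Stella-eGFP+, on days 2, 4 and 6 after EpiLCs were aggregated in GK15 medium with 2 μg/ml doxycycline (Dox). The cells of all 5 groups carried the Dox-inducible transgenes *Prdm1*, *Prdm14*, *Tfap2c* and *Nanog* (4TF), inserted into clonal ESC lines with an eGFP reporter of *Stella* (*Dppa3*). Dox, the medium, aggregation and the sort on eGFP all came with the step from EpiLC to PGCLC, so their parts in a difference between these groups cannot be told apart. The labels do not say whether replicates were separate cultures, and the p-values measure the spread between these samples, which may be technical.

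In the naive state, LIF acts through STAT3 and the 2i inhibitors act on MEK and GSK3, and their effects meet on a small network of factors that includes KLF4, KLF2, TFCP2L1 and ESRRB. Cells that leave this state for the formative epiblast turn most of these genes down while they keep *Pou5f1* and *Sox2*. Primordial germ cells form from the formative epiblast and switch several pluripotency genes on again.

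The 8 members that the RefSeq promoter table (GRCm38.p6) held were used to look at start sites, and *Klf5* and *Dppa5a* were not in it. Upstream sequences of 3 members are shown because these genes took different courses after the EpiLC state. *Klf4* stayed low, *Tfcp2l1* returned in part, and *Zfp42* returned to within the threshold of the ESC level. Each is the 250 bases before the start site, 5′ to 3′ on the strand of the gene, at chr4:55532476-55532725 (minus strand), chr1:118627695-118627944 (plus strand) and chr8:43307010-43307259 (minus strand). Capitals mark CACCC (the box bound by KLF factors) and ATGCAAAT (the octamer), in either orientation, so that GGGTG and ATTTGCAT are the same motifs read on the other strand.
Klf4: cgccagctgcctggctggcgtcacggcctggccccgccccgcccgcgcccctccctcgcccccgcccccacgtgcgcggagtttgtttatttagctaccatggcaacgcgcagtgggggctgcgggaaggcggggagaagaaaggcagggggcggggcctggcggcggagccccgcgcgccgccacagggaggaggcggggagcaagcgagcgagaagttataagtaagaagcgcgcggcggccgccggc
Tfcp2l1: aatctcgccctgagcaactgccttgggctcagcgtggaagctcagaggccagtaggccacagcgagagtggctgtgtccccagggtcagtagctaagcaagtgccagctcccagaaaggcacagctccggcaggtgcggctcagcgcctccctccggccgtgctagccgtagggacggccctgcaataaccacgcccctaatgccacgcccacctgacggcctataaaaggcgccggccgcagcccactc
Zfp42: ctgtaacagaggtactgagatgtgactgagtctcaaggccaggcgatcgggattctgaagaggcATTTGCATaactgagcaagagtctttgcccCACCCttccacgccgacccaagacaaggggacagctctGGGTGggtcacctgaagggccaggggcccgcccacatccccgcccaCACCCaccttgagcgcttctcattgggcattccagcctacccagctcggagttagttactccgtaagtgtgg

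The *Klf4* stretch was 74.0% G and C, that of *Tfcp2l1* 65.2% and that of *Zfp42* 58.4%. The full windows of the table ran from 250 bases before to 50 after the start, and the median of its 32851 windows was 52.7% G and C. The *Zfp42* stretch held 3 CACCC boxes and 1 octamer, and the *Klf4* and *Tfcp2l1* stretches held neither. Over the full windows, CACCC on either strand was in 8 of the 10 windows of the members, from 7 of 8 genes, with *Klf4* the exception, and in 57.5% of all windows. The octamer was in the window of 1 member, *Zfp42*, and in 1.74% of all windows. CAAGGTCA, the site of ESRRB and NR5A2, and AAGATGGC, a YY1-type motif, were in no member window and in 1.56% and 2.75% of all windows. These matches describe the letters of the windows only. No other sequence bound by KLF factors was searched for, so a lack of CACCC is not a lack of sites for KLF factors.

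The total count over genes ranged from 22555021 to 42725681 per sample. D6PGCLC replicate 1 had a count for 18061 genes, against 21103 to 24343 in the 14 other samples, and leaving it out changed no call of a member. Levels are given as CPM, the counts scaled to library size with TMM normalization, and differences as log2 fold changes with their standard error (SE) from edgeR's quasi-likelihood test. To be called, a gene needed an adjusted p under 0.05 (Benjamini-Hochberg, over 18090 genes) and more than a 2-fold difference, that is 1 or -1 on the log2 scale. A lack of overlap between the replicates of 2 groups was common. It held for 60.2% to 63.5% of all genes in each comparison with ESCs or EpiLCs. Between PGCLC days it held for 28.5% (D4 against D2), 29.5% (D6 against D4) and 47.2% (D6 against D2). The 4 EpiLC markers (*Fgf5*, *Pou3f1*, *Otx2* and *Dnmt3b*) summed to 1820 to 1970 CPM in EpiLCs and to 40.3 to 142 CPM in the other groups. The 7 PGCLC markers (*Prdm1*, *Dppa3*, *Tfap2c*, *Nanos3*, *Kit*, *Dnd1* and *Itgb3*, which include 2 transgenes and the reporter gene) summed to 1120 to 1310 CPM in PGCLCs and to 252 to 285 CPM in ESCs and EpiLCs. *Dppa3*, *Tfap2c*, *Nanos3*, *Kit* and *Itgb3* were called higher than in EpiLCs on each PGCLC day. *Dnd1* was called higher on days 2 and 4 but not on day 6 (18.8 against 12.8 CPM). *Prdm1* was called higher on no day (59.6 CPM on day 6 against 71.6 in EpiLCs). From day 4 to day 6 *Nanos3* and *Dnd1* were called lower (log2 fold change -1.24 and -1.26). The 7 fibroblast markers, of which 5 passed the filter, summed to 24.0 to 25.1 CPM in EpiLCs and to at most 8.41 CPM elsewhere. The EpiLC sum was mainly that of *Thy1* (12.8 CPM), *Dcn* (5.83) and *Col1a1* (3.6). All 5 endoderm markers passed and summed to 9.51 to 18.0 CPM in D6PGCLCs and at most 6.53 CPM elsewhere. The higher sum in D6PGCLCs than in ESCs was mainly that of *Gata6* (9.25 against 0.314 CPM). *Sox7* was also called higher (0.992 against 0.301), *Gata4* was called lower (1.94 against 4.35), and *Sox17* and *Foxa2* were not called. The 5 trophoblast markers summed to 13.0 to 37.7 CPM over all groups and did not move together. In D6PGCLCs relative to ESCs *Hand1* (13.1 against 0.32 CPM), *Elf5* and *Krt7* were called higher. *Cdx2* was called lower (0.217 against 2.03 CPM), and *Eomes* was not called. The 6 markers of two-cell-like cells, of which 4 passed, summed to 20.0 to 30.2 CPM in EpiLCs and at most 6.47 CPM elsewhere. The part of such cells in the results was not tested, and in these bulk samples fewer cells that express a gene and less RNA per cell cannot be told apart.

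Most of the naive factors fell sharply in EpiLCs. Relative to ESCs, 8 of 10 members were called lower in EpiLCs and 0 higher, where 11.9% of all genes tested were called lower and 14.4% higher. Their median log2 fold change was -2.29, against -0.01 over all genes. *Tfcp2l1* fell most, to 3.28% of its ESC mean, followed by *Klf4* at 9.38%, *Klf5* at 10.9%, *Esrrb* at 11.3% and *Nr5a2* at 16.9%. *Zfp42*, *Tcl1* and *Klf2* kept 24.8%, 25.6% and 43.1%. *Nr0b1* was at 62.8% and *Dppa5a* at 111%, and neither was called.

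**Figure D1:**
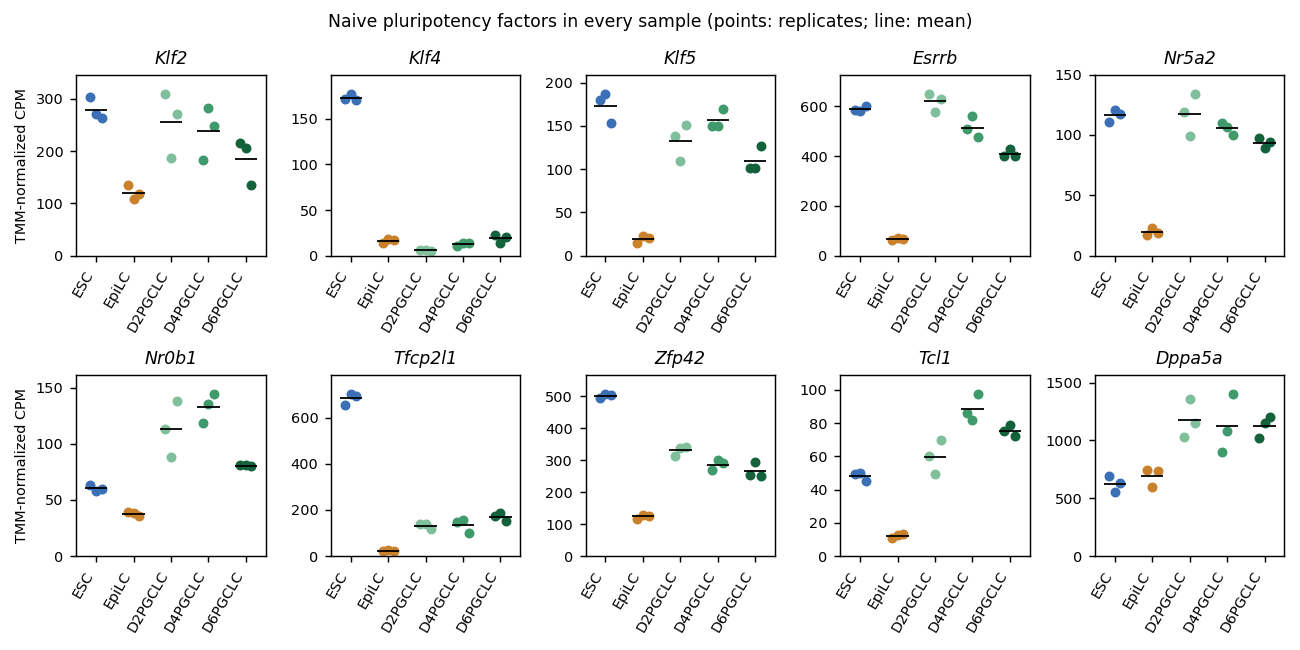
TMM-normalized CPM of each of the 10 naive factors (linear axis from 0, scaled per gene) in the 3 replicates of each group, with a line at the group mean. *Klf4* is at 170 to 177 CPM in ESCs and at 22.7 CPM or less in every other sample, whereas *Esrrb* is at 399 to 650 CPM in every ESC and PGCLC sample and at 61.7 to 70.5 CPM in EpiLCs.

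Most of those that fell then rose again. Relative to EpiLCs, 8 of 10 members were called higher in D2PGCLCs and 1 (*Klf4*) lower, where 11.0% of genes were called higher and 14.4% lower. In D4PGCLCs 7 were called higher and 0 lower (14.0% and 12.8% of genes), and in D6PGCLCs also 7 and 0 (15.9% and 12.0% of genes). The member that made the difference between day 2 and the later days was *Klf2*. The 8 called higher on day 2 were *Klf2*, *Klf5*, *Esrrb*, *Nr5a2*, *Tfcp2l1*, *Zfp42* and *Tcl1*, which had all been called lower in EpiLCs, and *Nr0b1*, which had not. *Klf4* was not called higher than in EpiLCs on any day. Neither was *Dppa5a*, the other member that had not been called lower in EpiLCs.

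**Figure D2:**
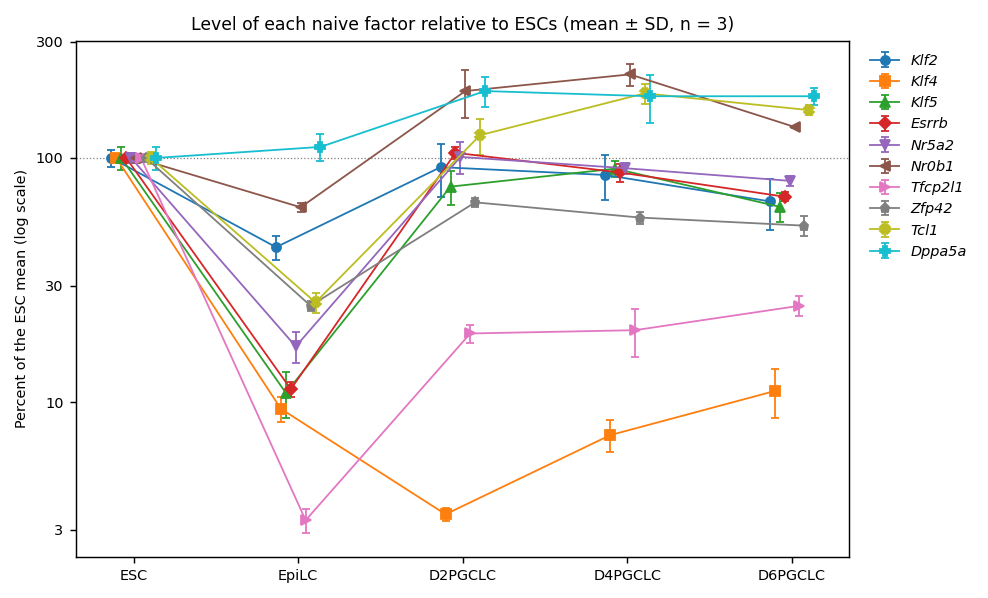
Level of each member as a percent of its ESC mean (log axis, mean ± SD, n = 3), with 1 line per gene across the 5 groups and a dotted line at 100%. *Klf4* is at 3.47% to 11.1% and *Tfcp2l1* at 19.1% to 24.8% in PGCLCs, and the other members are at 52.8% or above.

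Of the 8 that rose, 7 were not called lower than in ESCs on any day, and *Tfcp2l1* was called lower on each. Against ESCs, 2 of 10 members, *Klf4* and *Tfcp2l1*, were called lower in D2PGCLCs and 0 higher (12.7% and 11.7% of genes). In D4PGCLCs the same 2 were called lower and 1 (*Nr0b1*) higher (10.9% and 13.9% of genes). In D6PGCLCs these 2 were again the ones called lower and 0 were called higher (10.3% and 15.8% of genes). A call of this kind needs more than a 2-fold difference, and several members had smaller ones. With the adjusted p alone and no fold threshold, all 10 members differed from ESCs on day 6, 7 lower and 3 higher. Of the 18090 genes tested, 4702 were lower and 5019 higher by this rule, so the 3 higher were near the share of all genes.

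Between the days of PGCLCs the only member called was *Klf4*. In D4PGCLCs relative to D2PGCLCs 1 member (*Klf4*) was called higher and 0 lower (2.56% and 0.376% of genes). In D6PGCLCs relative to D4PGCLCs 0 were called in either direction (2.29% of genes higher and 0.785% lower). With the adjusted p alone 1 was higher and 3 were lower, beside 1090 and 1233 of all 18090 genes. Over the whole span from D2PGCLCs to D6PGCLCs 1 member, *Klf4* again, was called higher and 0 lower (10.9% and 2.75% of genes). With the adjusted p alone 3 were higher and 4 lower, beside 3522 and 3301 of all 18090 genes.

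**Figure D3:**
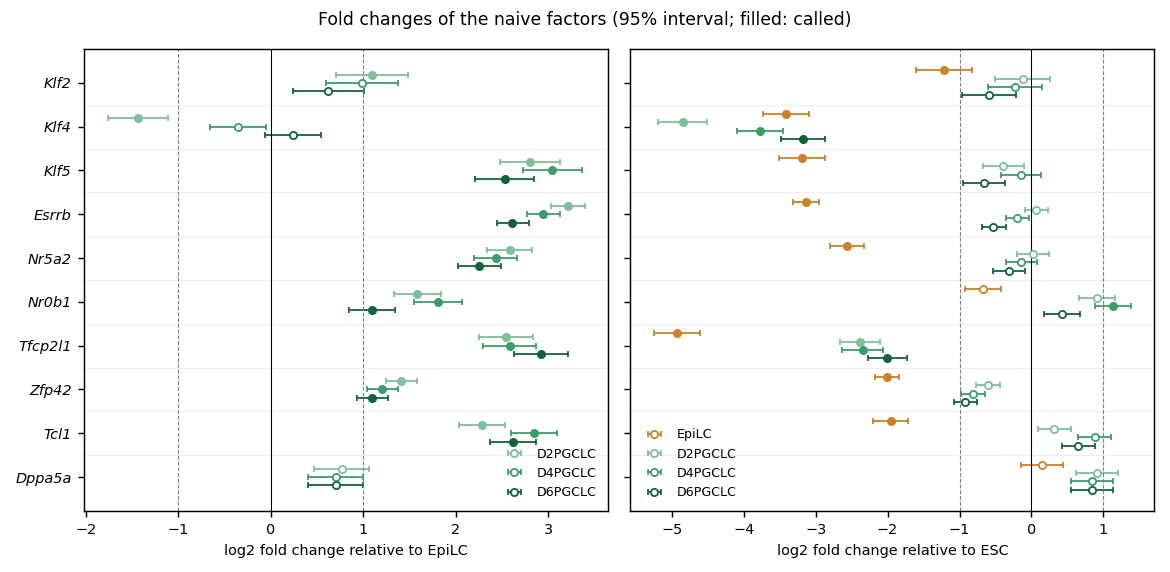
log2 fold changes of the members with 95% intervals, relative to EpiLCs (left, D2, D4 and D6PGCLCs) and relative to ESCs (right, EpiLCs and PGCLCs), with filled points for called changes and dashed lines at -1 and 1. On the left all points but those of *Klf4* on days 2 and 4 lie above 0, and on the right the PGCLC points of *Klf4* and *Tfcp2l1* lie at -2.01 or lower.

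KLF2, KLF4 and KLF5 are zinc finger activators that bind the CACCC box and can stand in for one another in naive ESCs. *Klf4* (ENSMUSG00000003032) lies at chr4:55527143-55532466 on the minus strand of mm10. Its CPM was 171, 177 and 170 in ESCs, 14.0, 17.8 and 16.8 in EpiLCs, 6.16, 6.27 and 5.55 on day 2, 10.5, 13.5 and 13.9 on day 4 and 22.7, 14.3 and 20.4 on day 6. Every ESC sample was high and every other sample low, and within the low samples the day 2 values lay below all others. *Klf4* fell from ESCs to EpiLCs (log2 fold change -3.41, SE 0.15, adjusted p = 1.22e-12) and fell further from EpiLCs to D2PGCLCs (-1.44, SE 0.15, adjusted p = 2.98e-07). On day 2 it was 28.8-fold below the ESC level (log2 fold change -4.85, SE 0.16). From day 2 it then rose to day 4 (log2 fold change 1.08, SE 0.15, adjusted p = 0.000278) and from day 2 to day 6 (1.67, SE 0.15, adjusted p = 2.2e-07), where it did not differ from EpiLCs at the threshold (0.24, 95% interval -0.06 to 0.54). Day 6 was still 9.04-fold below ESCs (adjusted p = 3.84e-12). Over the same days the 5 endoderm markers (*Gata4*, *Gata6*, *Sox17*, *Foxa2* and *Sox7*) summed to at most 1.76 CPM on day 2, 4.47 to 4.67 on day 4 and 9.51 to 18.0 on day 6, where *Gata6* alone was at 9.25 ± 4.35. Of the trophoblast markers *Hand1* was called higher from day 2 to day 6 (1.24 to 13.1 CPM), and *Cdx2*, *Eomes*, *Elf5* and *Krt7* were not called. The two-cell-like markers summed to at most 0.43 CPM on day 2 and to 3.03 to 6.47 CPM on day 6. The part of any such cells in the *Klf4* values was not tested.

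*Klf5* (ENSMUSG00000005148, chr14:99298691-99315036, plus strand) had the same mean as *Klf4* in ESCs and also fell in EpiLCs, and the courses parted from EpiLCs to day 2, where *Klf5* rose and *Klf4* fell further. Its CPM was 180, 187 and 153 in ESCs, 14.5, 22.4 and 20.0 in EpiLCs, 138, 109 and 151 on day 2, 150, 150 and 170 on day 4 and 101, 101 and 127 on day 6. The EpiLC samples stood apart from all others, and the ESC and D4PGCLC ranges overlapped. The loss in EpiLCs was 9.12-fold (log2 fold change -3.19, SE 0.15, adjusted p = 4.51e-12) and the gain on day 2 was 6.97-fold (2.80, SE 0.15, adjusted p = 2.91e-11). From day 4 to day 6 the level decreased by 0.52 on the log2 scale (SE 0.14, adjusted p = 0.0192, under the fold threshold), and day 6 was at 63.1% ± 8.57 (SD, n = 3) of ESCs.

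*Klf2* (ENSMUSG00000055148, chr8:72319033-72321656, plus strand) was the KLF gene that EpiLCs kept most of. Its CPM was 303, 270 and 263 in ESCs, 135, 108 and 117 in EpiLCs, 309, 186 and 271 on day 2, 183, 282 and 248 on day 4 and 215, 206 and 135 on day 6. Replicates of each PGCLC day spread widely, with a coefficient of variation of 21.3% to 24.7% against 7.77% in ESCs, and 1 D6PGCLC sample reached down to the highest EpiLC value. The fall in EpiLCs was 2.32-fold (log2 fold change -1.21, SE 0.19, adjusted p = 2.06e-05). The rise to day 2 was called at 1.09 (SE 0.18, adjusted p = 6.53e-05), and those to day 4 (0.98, adjusted p = 0.00017) and day 6 (0.62, adjusted p = 0.00699) stayed under the fold threshold. Without D2PGCLC replicate 1 the day 2 value was 0.93 and the call was lost, and without EpiLC replicate 1 or D4PGCLC replicate 1 the day 4 value was 1.08 or 1.15 and was called. No neighbouring pair in the order ESC, D2PGCLC, D4PGCLC, D6PGCLC differed at an adjusted p under 0.05. The ends of that order did, with D6PGCLCs below ESCs by a log2 fold change of -0.59 (SE 0.18, adjusted p = 0.0108), without overlap and under the fold threshold.

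The 3 genes together gave a KLF level whose make-up shifted. To compare different genes, levels are given per kb of exon. The length used is that of all annotated exons, 3049 bases for *Klf4* and 5201 for *Klf5*, and not that of the transcripts expressed. The 3 genes summed to 241 ± 14.0 CPM per kb in ESCs (SD, n = 3), 74.0 ± 5.98 in EpiLCs, 166 ± 37.5 on day 2, 163 ± 28.4 on day 4 and 127 ± 20.6 on day 6. *Klf4* made up 23.6% ± 1.38 of this sum in ESCs, 7.25% ± 1.40 in EpiLCs, 1.24% ± 0.367 on day 2, 2.56% ± 0.149 on day 4 and 5.03% ± 1.49 on day 6. *Klf2* was the largest part in each group, at 62.6% of the sum in ESCs and 77.9% to 87.7% in the others. The ratio of *Klf5* to *Klf4* per kb stood at 0.588 ± 0.0540 in ESCs and at 0.681 ± 0.0676 in EpiLCs, and then at 13.1 ± 2.85, 7.35 ± 0.972 and 3.46 ± 0.790 on days 2, 4 and 6. In each of the 9 PGCLC samples *Klf5* was thus above *Klf4* per kb, by 2.60-fold at the lowest, and in each of the 6 other samples it was below.

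**Figure D4:**
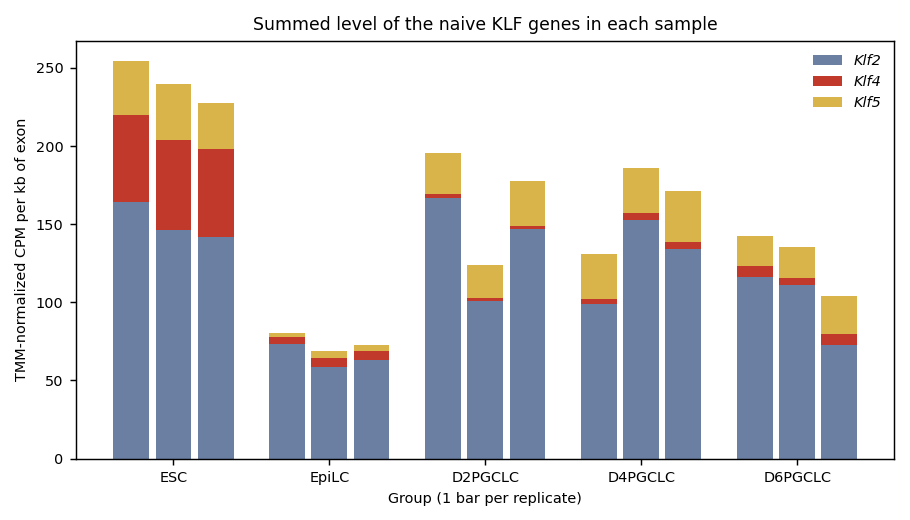
Summed level of *Klf2*, *Klf4* and *Klf5* in TMM-normalized CPM per kb of exon (linear axis from 0), with 1 stacked bar per sample. *Klf4* takes 23.6% of the ESC bars on average and 1.02% to 6.43% of each PGCLC bar.

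The 3 nuclear receptor genes were called higher than in EpiLCs on each day of PGCLCs and lower than in ESCs on none. *Esrrb* (ENSMUSG00000021255, chr12:86361117-86521628, plus strand) codes for an orphan receptor of the estrogen-related family that is a direct target of GSK3 inhibition through TCF7L1. Its CPM was 587, 583 and 600 in ESCs, 61.7, 70.5 and 68.4 in EpiLCs, 650, 578 and 631 on day 2, 509, 560 and 475 on day 4 and 399, 429 and 400 on day 6. The ESC and D2PGCLC ranges overlapped, and each later day lay lower with no overlap. *Esrrb* fell 8.82-fold in EpiLCs (log2 fold change -3.14, SE 0.08, adjusted p = 2.17e-15) and rose 9.26-fold to day 2 (3.21, SE 0.09, adjusted p = 4.21e-15), the largest gain among the members. It did not differ between D2PGCLCs and ESCs at the threshold (0.07, 95% interval -0.09 to 0.23). From day 2 to day 6 it decreased by 0.60 on the log2 scale (SE 0.08, adjusted p = 1.14e-05), to 69.4% ± 2.85 of ESCs (log2 fold change -0.53, adjusted p = 1.45e-05, under the fold threshold). Day 4 was also below ESCs (-0.20, adjusted p = 0.0411).

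*Nr5a2* (ENSMUSG00000026398, chr1:136842571-136960448, minus strand) codes for LRH-1, a receptor that binds the same site as ESRRB. Its CPM was 111, 121 and 117 in ESCs, 17.0, 22.7 and 19.2 in EpiLCs, 119, 99.1 and 134 on day 2, 110, 107 and 99.8 on day 4 and 97.6, 89.4 and 94.2 on day 6. EpiLCs stood apart from all others, and the day 6 samples lay below all ESC, D2PGCLC and D4PGCLC samples. The fall was 5.91-fold (log2 fold change -2.56, SE 0.11, adjusted p = 1.45e-12) and the rise to day 2 was 5.98-fold (2.58, SE 0.11, adjusted p = 2.33e-12). In the order D2PGCLC, ESC, D4PGCLC, D6PGCLC no neighbouring pair differed at an adjusted p under 0.05. Day 6 was below day 2 (-0.33, SE 0.10, adjusted p = 0.0195) and below ESCs (-0.31, SE 0.10, adjusted p = 0.0177), at 80.6% of the ESC mean, both under the fold threshold.

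*Nr0b1* (ENSMUSG00000025056, chrX:86191764-86195947, plus strand) codes for DAX1, a receptor without a DNA-binding domain that acts as a co-repressor. Its CPM was 62.9, 57.9 and 59.8 in ESCs, 38.9, 38.4 and 36.0 in EpiLCs, 113, 87.9 and 138 on day 2, 118, 135 and 144 on day 4 and 80.8, 80.7 and 79.9 on day 6. All 9 PGCLC samples lay above all ESC samples, which lay above all EpiLC samples. The loss in EpiLCs was 1.59-fold and under the fold threshold (log2 fold change -0.67, SE 0.12, adjusted p = 0.000114). Day 4 exceeded ESCs 2.20-fold (1.13, SE 0.12, adjusted p = 2.13e-07). Days 2 and 6 exceeded ESCs by less (0.91, adjusted p = 3.33e-06, and 0.42, adjusted p = 0.00582), and without D2PGCLC replicate 2 the day 2 value was 1.07 and was called. From day 4 to day 6 *Nr0b1* decreased by 0.72 on the log2 scale (SE 0.12, adjusted p = 0.000694, under the fold threshold).

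*Tfcp2l1* (ENSMUSG00000026380, chr1:118627945-118685168, plus strand) codes for a factor downstream of LIF and STAT3 that also responds to GSK3 inhibition. Its CPM was 655, 703 and 696 in ESCs, 19.8, 25.0 and 22.5 in EpiLCs, 138, 137 and 118 on day 2, 148, 155 and 100 on day 4 and 172, 185 and 154 on day 6. The 3 states formed 3 separate levels, with the PGCLC samples between the others. The fall in EpiLCs was 30.5-fold (log2 fold change -4.93, SE 0.15, adjusted p = 1.02e-14), the largest among the members. The rise to day 2 was 5.82-fold (2.54, SE 0.14, adjusted p = 3.1e-11), and D6PGCLCs were 7.57-fold above EpiLCs (2.92, SE 0.14, adjusted p = 5.27e-12). PGCLCs nonetheless stayed 5.24-fold, 5.09-fold and 4.02-fold below ESCs on days 2, 4 and 6 (adjusted p at most 3.83e-10). Per kb of exon the ratio of *Esrrb* to *Tfcp2l1* was 1.35 ± 0.0551 in ESCs, 4.67 ± 0.239 in EpiLCs and 7.44 ± 0.883, 6.13 ± 1.10 and 3.77 ± 0.257 on days 2, 4 and 6. *Tfcp2l1* overlaps 3 small genes in the annotation, none with more than 7 counts in a sample.

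*Zfp42* (ENSMUSG00000051176, chr8:43295063-43306980, minus strand) codes for REX1, a YY1-related protein used as a reporter of the naive state. Its CPM was 494, 506 and 505 in ESCs, 117, 129 and 126 in EpiLCs, 313, 338 and 340 on day 2, 268, 300 and 290 on day 4 and 252, 294 and 250 on day 6. PGCLCs lay between EpiLCs and ESCs with no overlap to either. *Zfp42* fell 4.04-fold in EpiLCs (log2 fold change -2.01, SE 0.08, adjusted p = 3.52e-13) and rose 2.65-fold to day 2 (1.41, SE 0.08, adjusted p = 4.92e-11). The log2 fold change from ESCs was -0.60 on day 2, -0.81 on day 4 and -0.92 on day 6 (SE 0.08 each, adjusted p = 3.02e-06, 7.18e-08 and 1.36e-08), each within the fold threshold. Without D6PGCLC replicate 2 the day 6 value reached the threshold and was called. A processed copy, *Zfp42-ps1*, had 61 to 293 counts per sample against at least 3069 for *Zfp42*, and reads that match both may have been split between them.

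*Tcl1* (ENSMUSG00000041359, chr12:105216750-105222793, minus strand) codes for a co-activator of AKT kinases and is a target of POU5F1 in ESCs. Its CPM was 49.4, 49.7 and 45.1 in ESCs, 11.0, 12.6 and 13.3 in EpiLCs, 60.1, 49.6 and 69.6 on day 2, 86.0, 81.6 and 97.3 on day 4 and 75.3, 78.9 and 72.1 on day 6. Days 4 and 6 lay above all ESC samples, and day 2 overlapped them. The fall was 3.90-fold (log2 fold change -1.96, SE 0.12, adjusted p = 9.54e-11) and the gain over EpiLCs was 4.86-fold on day 2 and 7.17-fold on day 4 (2.28 and 2.84, SE 0.12 each, adjusted p = 1.74e-11 and 1.03e-12). Relative to ESCs day 4 was higher by a log2 fold change of 0.88 (SE 0.11, adjusted p = 2.03e-06), under the fold threshold.

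*Dppa5a* (ENSMUSG00000060461, chr9:78367052-78368177, minus strand) codes for ESG1, a small KH-domain protein of pluripotent and germ cells. Its CPM was 695, 556 and 629 in ESCs, 748, 594 and 739 in EpiLCs, 1030, 1360 and 1150 on day 2, 896, 1080 and 1400 on day 4 and 1020, 1150 and 1200 on day 6. ESC and EpiLC samples overlapped, and every PGCLC sample lay above every one of them. The difference between EpiLCs and ESCs was 0.15 (SE 0.14, adjusted p = 0.402). PGCLCs were above ESCs by 0.91, 0.84 and 0.84 on the log2 scale on days 2, 4 and 6 (SE 0.14 each, adjusted p at most 5.75e-05), each under the fold threshold. Without D2PGCLC replicate 1, the lowest of its day, the day 2 difference was called. Per kb of exon *Dppa5a* was the highest of the 10 members in each group, at 1010 ± 113 CPM per kb in ESCs and 1900 ± 269 in D2PGCLCs (SD, n = 3). The copy *Dppa5b* had 0 counts and *Dppa5c* at most 19 in a sample, and how reads that match several copies were counted is not given in the sources used here.

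The other members spanned a wide range on the same scale. In ESCs *Zfp42* followed at 267 ± 3.65 CPM per kb and *Klf2* at 151 ± 11.7, and the lowest were *Tcl1* at 26.0 ± 1.40 and *Nr5a2* at 19.7 ± 0.859. *Klf4* was at 56.6 ± 1.14 CPM per kb in ESCs, above *Klf5* and *Nr0b1* at 33.3 each. Replicates of a group also differed across members, and D2PGCLC replicate 2 was the lowest of its group for *Klf2*, *Klf5*, *Esrrb*, *Nr5a2*, *Nr0b1* and *Tcl1* and the highest for *Dppa5a*. In D2PGCLCs *Klf4* was the lowest of the 10 at 1.97 ± 0.127 CPM per kb, and *Tfcp2l1* was the next at 13.9 ± 1.19.

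Over all 15 samples, the genes with a pattern most like that of a member were ranked by the Pearson r of log2(CPM + 0.25), among 13570 genes of at least 1 CPM on average. The samples fall into 5 groups, so that r mainly follows the group means and is given as a description. *Esrrb* and *Nr5a2* were each the most like of the other (r = 0.994). The gene most like *Klf4* was *Stat3* (r = 0.990), the transcription factor that transmits the LIF signal. *Stat3* was at 162 ± 7.14 CPM in ESCs, 33.1 ± 2.51 in EpiLCs and 22.1 ± 0.404, 32.9 ± 4.15 and 44.9 ± 1.18 on days 2, 4 and 6, and so shared with *Klf4* both the loss and the lowest point on day 2. The most like genes of the others were *Gdf3* for *Klf2* (r = 0.934), *Cep55* for *Klf5* (0.987), *Fam189a2* for *Tfcp2l1* (0.989), *Irf9* for *Zfp42* (0.982), *Sulf2* for *Tcl1* (0.987), *Cldn4* for *Nr0b1* (0.977) and the ribosomal protein gene *Rpl26* for *Dppa5a* (0.974). Among the members the lowest correlation was that of *Klf4* with *Dppa5a* (r = -0.691).

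The wider set of 20 naive and general pluripotency genes, from which the transgenes and *Dppa3* were left out (*Tbx3*, *Gbx2*, *Stat3*, *Socs3*, *Fgf4*, *Fbxo15*, *Tdh*, *Zfp57*, *Tet2*, *Dppa2*, *Dppa4*, *Pecam1*, *Jam2*, *Sox2*, *Pou5f1*, *Sall4*, *Utf1*, *Lifr*, *Il6st* and *Tdgf1*), held both genes that fell in EpiLCs and genes that did not. In EpiLCs relative to ESCs 11 of 20 were called lower and 1 higher (11.9% and 14.4% of all genes). Relative to EpiLCs 5 of 20 were called higher and 3 lower in D2PGCLCs (11.0% and 14.4% of genes), and 7 and 2 in D6PGCLCs (15.9% and 12.0%). Relative to ESCs 3 of 20 were higher and 8 lower in D6PGCLCs (15.8% and 10.3%). The 3 and 2 called lower relative to EpiLCs, and the 3 called higher than in ESCs, were thus near the share of all genes. The 6 most abundant per kb were *Pou5f1*, *Sox2*, *Utf1*, *Tdh*, *Dppa4* and *Tdgf1*. *Pou5f1* and *Sox2*, the core pluripotency factors, were called in none of these 4 comparisons, with *Pou5f1* at 1030 ± 59.1 CPM in ESCs, 941 ± 46.9 in EpiLCs and 822 ± 50.2 in D6PGCLCs. Under the fold threshold *Sox2* rose from 271 ± 22.5 CPM in EpiLCs to 475 ± 8.71 in D2PGCLCs (log2 fold change 0.81, SE 0.08, adjusted p = 1.4e-07). In D6PGCLCs *Sox2* was above ESCs (0.40, adjusted p = 0.000429) and *Pou5f1* below them (-0.32, adjusted p = 0.00478), both under the fold threshold. *Tdh*, the threonine dehydrogenase of naive cells, came back and then declined, with 749 ± 10.7 CPM in ESCs, 104 ± 3.75 in EpiLCs, 524 ± 20.1 on day 2, 346 ± 28.9 on day 4 and 173 ± 6.36 on day 6. Its rise to day 2 was called (log2 fold change 2.34, SE 0.08, adjusted p = 4.18e-14), and day 6 was called lower than ESCs (-2.11, SE 0.07, adjusted p = 1.39e-13). Day 6 was still above EpiLCs (0.74, SE 0.07, adjusted p = 7.92e-08), under the fold threshold. *Utf1* was higher in EpiLCs than in ESCs (1.55, SE 0.13, adjusted p = 5.61e-09) and stayed so in D6PGCLCs (1.67, SE 0.13). *Dppa4* was higher in D6PGCLCs than in ESCs (1.11, SE 0.10, adjusted p = 1.92e-08). *Tdgf1*, the NODAL co-receptor, was lower in D6PGCLCs than in ESCs (-2.05, SE 0.29, adjusted p = 7.1e-06).

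**Figure D5:**
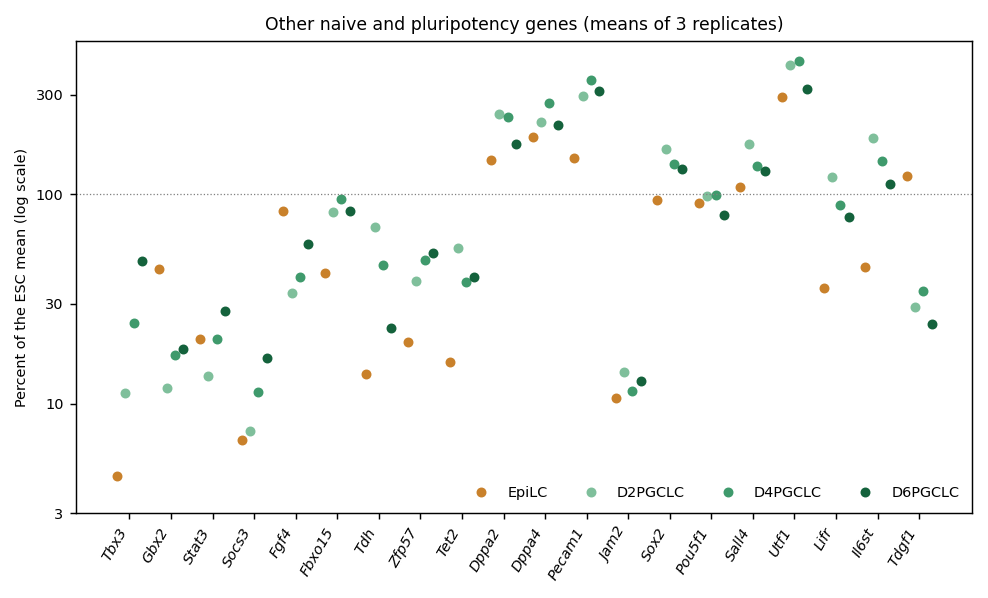
Group means of the 20 genes of the wider set as a percent of the ESC mean (log axis, 3 replicates a group), with 1 column of points per gene and colors for EpiLCs and the 3 PGCLC days. *Stat3* stays far below the dotted line at 100% in each group, and *Pou5f1* stays near it.

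Relatives of the members in the same gene families were called in both directions. Of 35 such genes, 26 passed the filter. In EpiLCs relative to ESCs 4 of 26 were called higher and 8 lower (14.4% and 11.9% of all genes). Relative to EpiLCs 6 were higher and 5 lower in D2PGCLCs (11.0% and 14.4% of genes), and 7 higher and 3 lower in D6PGCLCs (15.9% and 12.0%). Relative to ESCs 4 were higher and 1 lower in D6PGCLCs (15.8% and 10.3%). Of these counts, the 4 higher in EpiLCs, the 3 lower in D6PGCLCs than in EpiLCs and the 4 higher in D6PGCLCs than in ESCs were near the share of all genes. The 14 other KLF genes had a median log2 fold change of 0.23 in EpiLCs relative to ESCs and of -0.15 in D2PGCLCs relative to EpiLCs. In EpiLCs 3 of these 14 (*Klf3*, *Klf8* and *Klf15*) were called lower and 2 higher, the latter near the share of all genes. In D2PGCLCs relative to EpiLCs *Klf8* (1.86) and *Klf15* (2.36) were called higher and 4 of 14 lower (11.0% and 14.4% of genes). *Klf3* rose under the fold threshold (0.84). *Klf15* was not called against ESCs on any PGCLC day, and *Klf8* was called lower on day 6 (-1.38). The 6 most abundant relatives per kb were *Klf16*, *Ubp1*, *Yy1*, *Klf9*, *Klf10* and *Klf6*. *Klf6* took the reverse course of *Klf5* from ESCs to day 2, from 62.3 ± 4.05 CPM in ESCs to 137 ± 13.9 in EpiLCs and back to 63.4 ± 7.24 in D2PGCLCs, and both steps were called (log2 fold change 1.14, adjusted p = 1.46e-08, and -1.11, adjusted p = 2.08e-08). *Klf9* was called lower in D2PGCLCs than in ESCs (-1.10, adjusted p = 3.28e-08). *Klf16*, *Ubp1*, *Yy1* and *Klf10* were called in none of the 10 comparisons. Of these, *Klf16* ranged from 68.7 to 83.6 CPM and *Yy1* from 134 to 158 CPM over the group means.

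Of 11 tested genes within 100 kb of the 8 members that were called lower in EpiLCs, 2 were also called lower, that is 18.2% against 11.9% of all genes, and with so few neighbours nothing is read from the difference. *Ap1m1*, which codes for a clathrin adaptor subunit, lies 61648 bases from *Klf2*. It was at 103 CPM in ESCs, 44.9 in EpiLCs and 113, 112 and 95.5 on days 2, 4 and 6, and its rise was called on all 3 days (log2 fold change 1.33, 1.31 and 1.09, adjusted p at most 3.56e-09). *Tcl1b2*, a relative of *Tcl1* that lies 61525 bases from it, was near the limit of detection. It was at 0.276 ± 0.127 CPM in ESCs and had 0 counts in each EpiLC sample, where 3 counts are at most 0.132 CPM. It was at 1.66 ± 0.350 CPM in D2PGCLCs, called higher than in ESCs (log2 fold change 2.54, SE 0.46, adjusted p = 0.000193).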

How the data were processed

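RNA-seq of 15 samples (3 replicates of 5 groups) was analysed. The authors prepared libraries with a directional kit, aligned reads to mm10 with ENSEMBL annotations and deposited raw counts per gene. The submitters' processing notes name Trim Galore, FastQC and STAR. The counting tool, its use of strand and its treatment of reads that match several genes are not given in the sources used here.

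All 55536 identifiers matched GENCODE M21, the source of symbols, mm10 coordinates and exon lengths. Counts were tested with edgeR 4.0.16 (R 4.3.3): TMM, filterByExpr (minimum count 10), 1 quasi-likelihood model with a coefficient for each of the 5 groups, and p-values adjusted by Benjamini-Hochberg over 18090 genes. The threshold was an adjusted p of 0.05 with an absolute log2 fold change of 1. The methods of the study name DESeq2, an alternative here (1.42.0). Both were tested on simulated data. SEs are the fold change divided by the square root of F. Promoters are from RefSeq (GRCm38.p6).

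The members and lists were chosen with earlier results of these data known. The genes named are the members, the 6 most abundant per kb of each list, the gene most like each member, and neighbours within 100 kb that fell with it. The KLF relatives called lower in EpiLCs, and the genes under other observations, were named after their values were seen. A comparison of the protein sequences was not run. Alternatives were DESeq2, its size factors in edgeR, no filter, the replicate block, only the 2 groups compared, no fold threshold, each replicate left out, and, for levels, other scalings and other values added to CPM. Deviations of same-numbered samples from their group means correlated at -0.0285 to 0.208 over 30 pairs. All 3 pairs were over 0.1 only for D4PGCLCs and D2PGCLCs (0.102, 0.152 and 0.159). D6PGCLCs and D4PGCLCs had 0.208 and 0.147 in replicates 2 and 3, and -0.00292 in replicate 1. Values this low, on both sides of the cutoff, cannot decide whether same-numbered samples were paired, and no pairing is concluded. The reported tests, D4PGCLCs against D2PGCLCs included, came from the model without a block. A count interval or a limit from 3 counts covers counting error only.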

Additional observations from a re-analysis of the deposited data

Results flagged for a closer look

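The change of *Klf4* from EpiLCs differed between the days of PGCLCs, by a test of the difference between the days themselves. From D2PGCLCs to D4PGCLCs the difference was 1.08 on the log2 scale (SE 0.15, edgeR adjusted p = 0.000278), and from D2PGCLCs to D6PGCLCs it was 1.67 (SE 0.15, edgeR adjusted p = 2.2e-07). All 3 samples of each later day lay above all 3 of day 2 in both comparisons. Replicates likewise did not overlap for 28.5% of all genes between D2 and D4PGCLCs and for 47.2% between D2 and D6PGCLCs. No other member was called between PGCLC days.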

How the results depend on the processing

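Of 695 counts of calls recomputed under an alternative, 644 stayed within 1.5 times the reported count. Of 1100 recomputed fold changes of members, 1082 kept their direction and their side of the threshold. A fold change that rounds to 0 was given no direction. DESeq2, its size factors in edgeR, only the 2 groups compared and the replicate block changed no call of a member, and without the filter 8 rather than 7 were higher in D4PGCLCs than in EpiLCs, with *Klf2* added. The block gave again 8 members lower in EpiLCs than in ESCs and 8 higher in D2PGCLCs than in EpiLCs. Without a fold threshold, members called higher and lower relative to ESCs were 3 and 4 (D2PGCLCs), 3 and 4 (D4PGCLCs) and 3 and 7 (D6PGCLCs), 1 was lower in D4PGCLCs than in EpiLCs, 2 and 1 were called from D2 to D4PGCLCs, 1 and 3 from D4 to D6PGCLCs, and 3 and 4 from D2 to D6PGCLCs. In the wider set 4 were then higher in EpiLCs than in ESCs, 14 and 12 higher in D2 and D6PGCLCs than in EpiLCs, and 6 higher and 13 lower in D6PGCLCs than in ESCs. Of the relatives 9 were higher in EpiLCs than in ESCs, 14 higher and 7 lower in D6PGCLCs than in EpiLCs, and 7 higher and 5 lower in D6PGCLCs than in ESCs. Over all genes, higher and lower calls without the fold threshold were 4762 and 4733 in EpiLCs, 4633 and 4237 in D2PGCLCs, 4873 and 4320 in D4PGCLCs and 5019 and 4702 in D6PGCLCs relative to ESCs. They were 4919 and 4707, 5357 and 4727, and 5465 and 4922 on days 2, 4 and 6 relative to EpiLCs, 1313 and 833 from D2 to D4PGCLCs, 1090 and 1233 from D4 to D6PGCLCs, and 3522 and 3301 from D2 to D6PGCLCs. With only the 2 groups compared, 78 genes were lower in D6 than in D4PGCLCs, against 142 in the fit of all samples, and the cause was not tested. Leaving out 1 replicate gave 0 to 1 members higher in D2PGCLCs than in ESCs (1 without D2PGCLC replicate 1 or 2), 1 to 2 genes of the wider set higher in EpiLCs than in ESCs (2 without EpiLC replicate 1), and 5 to 8 higher in D2PGCLCs than in EpiLCs (8 without EpiLC replicate 2). Genes lower in D4 than in D2PGCLCs then ranged from 34 (without D4PGCLC replicate 3) to 81, and genes lower in D6 than in D4PGCLCs from 94 (without D6PGCLC replicate 1) to 218 (without D6PGCLC replicate 2). The direction of fold changes near 0, none of them called, turned with 1 replicate left out. Over the replicates left out, *Klf2* ranged from -0.28 to 0.06 in D2PGCLCs relative to ESCs and from -0.29 to 0.05 from D2 to D4PGCLCs, *Tfcp2l1* from -0.08 to 0.22 from D2 to D4PGCLCs, *Nr5a2* from -0.09 to 0.13 in D2PGCLCs relative to ESCs, and *Dppa5a* from -0.26 to 0.07 from D2 to D4PGCLCs and from -0.16 to 0.04 from D2 to D6PGCLCs. With 1 or 0.5 added to CPM in place of 0.25, the gene most like a member was the same for 8 or 9 of the 10. Scaling by library totals instead of TMM shifts every log2 fold change of D6PGCLCs by 0.21 relative to EpiLCs and by 0.17 relative to D2PGCLCs, and those of the other comparisons by 0.12 or less. At these depths 3 counts are at most 0.132 CPM, which limits *Tcl1b2* and no member.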

Other observations

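Among the wider set, some genes of the LIF pathway and of naive cells were singled out after their values were seen. *Socs3*, the feedback inhibitor that STAT3 induces, was at 97.1 ± 3.95 CPM in ESCs, 6.49 ± 0.748 in EpiLCs and 7.21 ± 4.15, 11.1 ± 7.65 and 16.0 ± 7.25 on days 2, 4 and 6 (SD, n = 3). It was called lower in D6PGCLCs than in ESCs (log2 fold change -2.60, SE 0.39, edgeR adjusted p = 1.75e-05). The LIF receptor genes took another course. *Lifr* rose from 20.4 ± 2.76 CPM in EpiLCs to 69.2 ± 8.56 in D2PGCLCs (log2 fold change 1.76, SE 0.13, edgeR adjusted p = 1.57e-09). *Il6st*, which codes for the gp130 subunit, rose from 42.3 ± 7.21 to 175 ± 9.69 CPM (2.05, SE 0.11, edgeR adjusted p = 3.19e-11).

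*Tbx3*, a naive factor linked to PI3K and LIF signals, climbed over the days, from 6.99 ± 0.693 CPM in EpiLCs to 17.5 ± 0.947, 37.7 ± 2.52 and 74.7 ± 8.56 on days 2, 4 and 6, against 155 ± 4.14 in ESCs. Day 6 was called higher than EpiLCs (3.42, SE 0.11, edgeR adjusted p = 2.58e-14) and lower than ESCs (-1.05, SE 0.09, edgeR adjusted p = 2.09e-08). *Jam2*, a junctional adhesion molecule gene of ESCs, was at 181 ± 7.65 CPM in ESCs and at 19.2 to 25.7 CPM over the means of the other groups. *Gbx2* went below its EpiLC level. It was at 23.0 ± 0.898 CPM in ESCs, 10.1 ± 1.47 in EpiLCs and 2.73 ± 0.155, 3.94 ± 2.07 and 4.2 ± 0.948 on days 2, 4 and 6. Each day was called lower than EpiLCs (log2 fold change -1.89, -1.35 and -1.26, edgeR adjusted p at most 0.000291).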
